A study of Mus musculus with 4 samples.

Results

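The variants described here lie in 5 genes for histone methyltransferases, the enzymes that place methyl groups on histone tails: Setd2, Nsd2, Ezh2, Kmt2b and Kmt2d. They were taken from 2 lists of RNA sequence variants, 1 per mouse cancer cell line, as every record whose annotated gene symbol was 1 of the 5. This gave 36 of 11806 listed variants, 21 of 6361 in the bladder cancer line MBT2 and 15 of 5445 in the osteosarcoma line LM8. Since 7 variants stood in both lists, the 36 records are 29 distinct variants. The lists hold called sites only and give no reads elsewhere. A variant missing from a list may therefore still be present in that line. Both lines are syngeneic with C3H/HeN mice, the labels name no engineered change in either, and they were grown without treatment in medium with 10% serum, LM8 in MEM with HEPES and MBT2 (labelled #63) in RPMI-1640. The labels also give P+22 for MBT2 and P+7 for LM8. What that number means is not stated, and it cannot be told apart from the line. From each line 2 poly(A) RNA libraries were sequenced, and the variants of both were called together without a normal sample from the same strain. Whether the libraries of a line came from separate cultures is not stated. The p-values below are computed from read counts. They set a difference against counting error, not against a spread between libraries or cultures.

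Setd2 places the third methyl group on lysine 36 of histone H3 along transcribed genes, and its C-terminal end holds the domain that binds elongating RNA polymerase II. Nsd2 makes the dimethyl form of the same mark. Ezh2 is the catalytic subunit of the Polycomb repressive complex PRC2, which methylates lysine 27 of histone H3. Kmt2b and Kmt2d, members of the MLL family, methylate lysine 4 of histone H3 at promoters and enhancers. Their genes have long coding sequences and many short introns. Genes of these families are recurrently mutated in human bladder and other cancers.

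The reference sequence around the substitutions that change a codon is shown first, since the position in the codon and in the transcript sets what each label means. Each line is RNA-strand sequence from GENCODE M21 transcripts, written as DNA from 5′ to 3′. The affected codon stands in capitals, and for Setd2 E759* the stop codon that follows it does too.
Setd2 E759* (MBT2): actgaactaGAGTGAcctcag
Setd2 R457Q (LM8): aacagggcaCGGgagagctca
Nsd2 A567T (LM8): gacaaaacgGCCagaacaagc
Ezh2 C642W (LM8): tcagaatacTGTggggagatt
Kmt2d L124F (LM8): cctgagggtCTTacgcctgcc
Kmt2d K316E (LM8): cactcgtggAAAtgtaagaca

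At the sites of the 5 genes the reads summed over both libraries ranged from 48 to 300 (median 122) in MBT2 and from 39 to 160 (median 80) in LM8. Percentages below are alternative reads among all reads at a site, and intervals are exact Clopper-Pearson 95% intervals. They cover counting error only, with reads taken as independent. Amplified reads are not independent molecules, so the intervals may be too narrow. Fisher's exact test of library 1 against library 2, with Benjamini-Hochberg adjustment over each whole list, called 0% of sites in either line and none of the 36 records. At an unadjusted p under 0.05 it found 2 of the 21 MBT2 records and 0 of the 15 LM8 records, against 3.76% and 3.89% of all sites. A percentage of RNA reads depends on how strongly each gene copy is transcribed, so it is not a share of cells or of gene copies. The lists hold no expression levels, so the tissue of origin could not be checked by marker level.

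MBT2 had 4 substitutions, 16 deletions of 21 or more bases (called long here) and 1 insertion. LM8 had 9 substitutions and 6 long deletions. Over the whole lists substitutions made up 49.8% of records in MBT2 and 51.5% in LM8, and long deletions 31.8% and 30%. Whether the mix of kinds in the 5 genes differs between the lines was not tested. By gene, MBT2 had 12 records in Kmt2b, 6 in Kmt2d and 1 each in Setd2, Nsd2 and Ezh2. LM8 had 7 in Kmt2d, 4 in Kmt2b, 2 in Nsd2 and 1 each in Setd2 and Ezh2. Only 1 of the 3933 genes in the MBT2 list had more records than Kmt2b, and 8 of the 3495 genes in the LM8 list had more than Kmt2d, where the median gene had 1. In the other line, 50 LM8 genes had more than Kmt2b and 24 MBT2 genes more than Kmt2d. Long deletions were 11 of the 12 Kmt2b records in MBT2. At least its 1 substitution was found in 2301 genes of that list, Kmt2b among them. Transcript length and intron number were not taken into account. The 7 variants found in both lists make up 7 of 21 MBT2 records, against 19.8% of that whole list, and 7 of 15 LM8 records, against 23.2%. Of these 7, 6 were long deletions and 1 was a substitution. The whole-list shares are over all kinds of record, and the share among long deletions alone was not computed. All 36 records carried the default value of the population-frequency field. So did 6183 of the 6361 MBT2 and 5281 of the 5445 LM8 records, so it does not set the 5 genes apart.

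Setd2 had 1 substitution in each line, at different sites. The MBT2 substitution, at chr9:110447042 (GRCm39), is a G-to-T change that turns a glutamate codon into a stop and is listed as E759* in exon 10. It was read in 93 of 126 reads (73.8%) in library 1 and 109 of 174 (62.6%) in library 2. Together that was 202 of 300 reads, or 67.3% (interval 61.7 to 72.6%), and the alternative base was on 98 forward and 104 reverse reads. The alternative base was thus in the majority in both libraries, which differed at an unadjusted p of 0.0464 (Fisher's exact test, adjusted p = 1).

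The number 759 comes from a transcript that the annotation holds without its 5′ part. In that transcript the codon is number 759 of 759, and in the full-length Setd2 transcript the same codon is number 2537 of 2537, in exon 21 of 21. The sequence shown above has the normal stop codon TGA directly after it. A stop at this place therefore shortens the annotated protein by 1 residue. The distance to the LM8 site in the same gene, 69486 bases, was equal in the lists and in the annotation.

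The LM8 substitution in Setd2, at chr9:110377556, is a G-to-A change listed as R457Q in exon 3, codon 457 of 2537. It was read in 14 of 60 reads (23.3%) in library 1 and 13 of 69 (18.8%) in library 2. Together this gave 27 of 129 reads, or 20.9% (interval 14.3 to 29.0%), with 11 forward and 16 reverse alternative reads. The 2 libraries lay close together, and the reference base was the more frequent in both. The changed base lies in a CpG, as no other coding substitution of the 13 did.

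Nsd2 had 2 substitutions in LM8 and 1 insertion in MBT2. The T-to-G change at chr5:34039513 in LM8, listed as a splice donor change after exon 12, was read in 25 of 29 reads (86.2%) in library 1 and 20 of 24 (83.3%) in library 2. Together that was 45 of 53 reads, or 84.9% (interval 72.4 to 93.3%), the highest percentage among the 13 substitutions. The caller's median distance of the alternative base from the read end was 1 base, the lowest value that passes its filter. The listed alternative G is also the base that spliced RNA carries there: in all 7 annotated Nsd2 transcripts with this junction, the second base of the next exon is G. The junction follows, with the last 10 bases of exon 12 in lower case, then the next exon with its first 2 bases in capitals.
Nsd2 exon 12 and next exon: tgctccaaagGGggaagcct
The phasing field of this record names an insertion at chr5:34039509 that is not itself in the list.

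The other Nsd2 substitution in LM8, A567T at chr5:34024945 in exon 9, was read in 1 of 95 reads (1.05%) and 3 of 65 (4.62%). Its sum was 4 of 160 reads, or 2.50% (interval 0.685 to 6.28%). All 4 alternative reads were reverse, while the reference reads were 72 forward and 84 reverse, and the median distance from the read end was again 1 base. Codon 567 is numbered in a short isoform of 629 codons.

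The MBT2 insertion in Nsd2, at chr5:34028980, adds 65 bases and is listed in the 3′ UTR of that short isoform, in exon 10. It was read in 4 of 58 reads (6.90%) in library 1 and 6 of 58 (10.3%) in library 2, so 10 of 116 reads, or 8.62% (interval 4.21 to 15.3%). The 65 bases are not foreign to the gene: they occur in 7 of the 15 annotated Nsd2 transcripts, mostly from base 3 of an exon of 132 bases. In 2 of these transcripts the 12 bases before them are the same as before the listed site. The stretch up to the site is shown in lower case and the next 15 bases in capitals, first as inserted, then in a spliced Nsd2 transcript and then in the short isoform, which reads on without a splice.
Nsd2 insertion start: taagaccaaggtCTCAGACAGCCCAGG
Nsd2 spliced transcript: taagaccaaggtCTCAGACAGCCCAGG
Nsd2 unspliced: taagaccaaggtAAGATACTCAATCAA

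Ezh2 had 1 substitution in each line, both at low percentages. In LM8 the T-to-G change C642W, at chr6:47510682 in exon 16 of 20, was read in 4 of 63 reads (6.35%) and 4 of 67 (5.97%). The sum was 8 of 130 reads, or 6.15% (interval 2.69 to 11.8%). Codon 642 of 746 lies in the C-terminal part of the protein, where the catalytic SET domain is. All 8 alternative reads were forward, against 88 forward and 34 reverse reference reads, the median distance from the read end was 1 base, and the site lies 7 bases from the downstream end of its exon. In MBT2 the A-to-T change in the 3′ UTR at chr6:47507391 was read in 3 of 77 reads (3.90%) and 1 of 83 (1.20%), so 4 of 160, or 2.50%, again with all 4 alternative reads forward and a median distance of 1 base.

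Kmt2d carried 5 of the 9 LM8 substitutions, a number that 7 genes of that list reached, Kmt2d among them. The silent G-to-C change at R5042 (chr15:98737969, exon 49) was read in 5 of 36 reads (13.9%) and 4 of 31 (12.9%), so 9 of 67, or 13.4% (interval 6.33 to 24.0%). The silent change at G2708 (chr15:98749392, exon 34) was read in 2 of 45 and 2 of 32 reads, or 5.19% of 77. Both lay 14 or 16 bases from the read end at the median, and both had alternative reads on both strands.

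The missense change K316E of Kmt2d (chr15:98762823, exon 8), an A-to-G change, was read in 3 of 27 reads (11.1%) and 1 of 12 (8.33%), so 4 of 39, or 10.3% (interval 2.87 to 24.2%), at the shallowest site of all 36. Its median distance from the read end was 9 bases and it lies 9 bases from the downstream end of the exon. The other missense change, L124F (chr15:98763907, exon 4), was read in 2 of 23 reads (8.70%) in library 1 and in 0 of 21 in library 2, where 0 reads allow up to 14.3%, taken as 3 reads of 21. The sum was 2 of 44 reads, or 4.55%, and the mean of the caller's own allele fraction was 8.45%. It was the only record of the 36 with no alternative read in 1 library.

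The remaining Kmt2d substitution, an A-to-G change in the 3′ UTR at chr15:98731600, was the substitution found in both lists. It was read in 2 of 70 (2.86%) and 2 of 48 (4.17%) reads in LM8, or 3.39% of 118. In MBT2 it was read in 4 of 42 (9.52%) and 2 of 58 (3.45%) reads, or 6.0% of 100. The ranges of the lines overlapped. Kmt2b had 1 substitution, a silent C-to-T change at L2357 (chr7:30273466, exon 30) in MBT2, read in 2 of 75 (2.67%) and 2 of 53 (3.77%) reads, or 3.13% of 128.

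**Figure D1:**
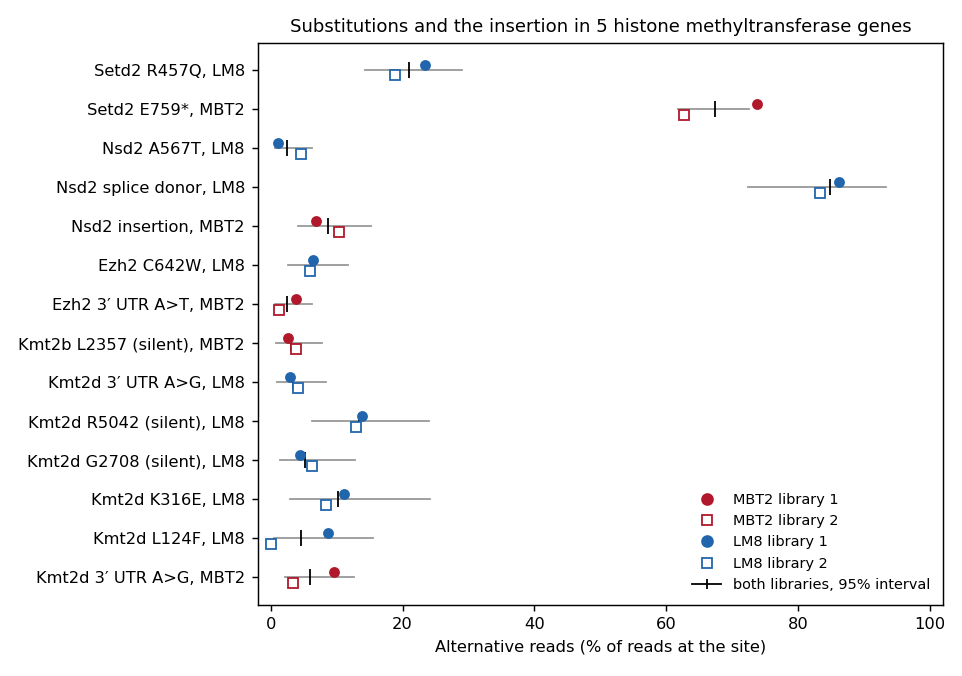
Alternative reads as a percentage of reads at the site (horizontal axis) for the 13 substitution records and the insertion, by gene and line (vertical axis); filled circles are library 1, open squares library 2, black ticks the sum of both libraries and grey lines its exact 95% interval. Setd2 E759* at 67.3% and the Nsd2 splice donor at 84.9% stand to the right, Setd2 R457Q is at 20.9%, and every other record is under 15%.

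Set against one another, 8 of the 13 substitutions were under 10% of reads and 3 were at 20% or more. The latter were 1 of 4 in MBT2, where 23.1% of all listed substitutions reach that level, and 2 of 9 in LM8, where 13.5% do. From library 2 alone the LM8 count was 1 of 9, since Setd2 R457Q was at 18.8% there. A median distance of 1 base from the read end was found for 1 of 4 MBT2 substitutions, against 29.8% of the list, and for 3 of 9 in LM8, against 32.5%. Over the whole lists, substitutions with that lowest distance had a median of 4.23% of reads in MBT2 and 4.35% in LM8, and the others 8.11% and 7.14%. Of the 5 missense records, all in LM8, the Ezh2 and Nsd2 ones had this lowest distance, and the Setd2 and 2 Kmt2d ones lay 7 to 15 bases from the read end. The part of read position in these calls was not tested.

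**Figure D2:**
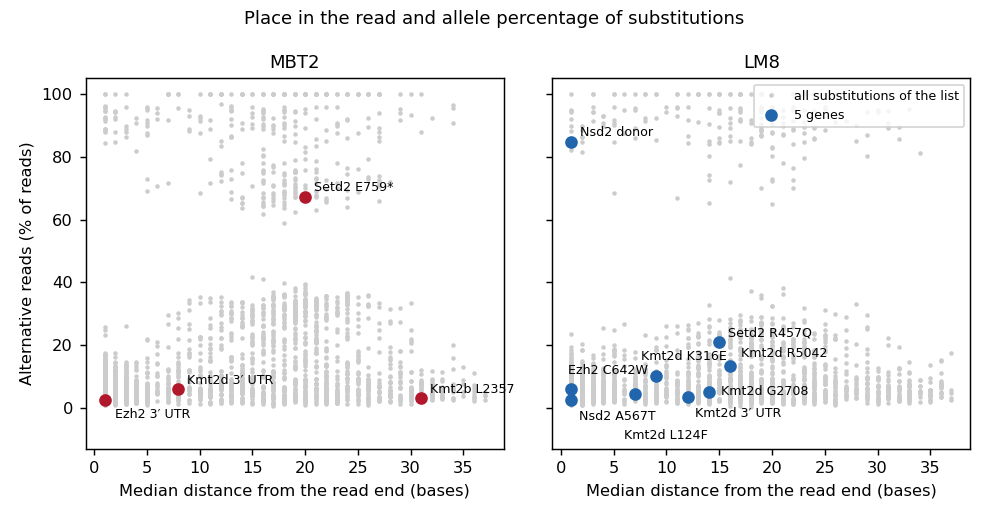
Percentage of alternative reads (vertical axis) against the caller's median distance of the alternative base from the read end in bases (horizontal axis), for all substitutions of each list (grey points) and those of the 5 genes (coloured, named). The Nsd2 donor, Nsd2 A567T, Ezh2 C642W and the MBT2 change in the Ezh2 3′ UTR sit at 1 base, while Setd2 E759* is at 20 and Setd2 R457Q at 15.

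The 22 long deletions all lay in Kmt2b and Kmt2d, and all had the length of an intron of their gene. Across the lists this held for 64.8% of long deletions in MBT2 and 65.3% in LM8. Compared with the intron next to the annotated exon, 15 of 16 in MBT2 and 5 of 6 in LM8 had exactly its length, and their deleted bases began with GT and ended with AG on the RNA strand. The annotation labels 9 of the 16 MBT2 deletions frameshift and 7 splice site, and in LM8 3 frameshift and 3 splice site. The intron ends that follow are those of the deepest Kmt2b deletion and of both Kmt2d deletions found in both lists. Each line has 22 bases, with the GT and AG at the ends of the deleted bases in capitals. For Kmt2d intron 31, the first AG is where the annotated intron ends and the second is where the deletion ends.
Kmt2b intron 31 5-prime end: agcttggaggGTgagttgaggg
Kmt2b intron 31 3-prime end: tcctcattccAGtggcatggag
Kmt2d intron 28 5-prime end: tggattctagGTtggtatctgc
Kmt2d intron 28 3-prime end: cctgcgccccAGggagcgcggg
Kmt2d intron 31 5-prime end: ggtgcagaagGTgagtgggcgg
Kmt2d intron 31 3-prime end: tctctctgtAGcAGgctgagag

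Of the 36 introns of Kmt2b, 11 had a listed deletion in MBT2 and 4 of these also in LM8 (introns 6, 16, 31 and 32). Reads at unlisted introns are not given, so an unlisted deletion is not shown to be absent. Sites of the 5 genes were also shallower in LM8, with a median of 80 reads against 122 in MBT2. The 11 MBT2 deletions were at 82.0 to 95.4% of reads (median 90.3%, 79 to 222 reads), and the 4 LM8 deletions at 90.6 to 92.0%. Intron length separated listed from unlisted introns only in part. Those listed were 72 to 161 bases long, and 8 of the 19 introns of up to 161 bases were not listed. The 17 longer introns are unlisted by the choice of that limit. In the whole lists no intron-length deletion was longer than 230 bases in MBT2 or 233 in LM8.

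For the deletion of intron 31 (72 bases, chr7:30270053) the percentages were 89.7% and 92.3% in the LM8 libraries, so 142 of 156 reads or 91.0%. In MBT2 they were 82.7% and 81.3%, so 182 of 222 reads or 82.0%. Both MBT2 libraries were lower than both LM8 libraries. The difference of -9.04 percentage points (MBT2 minus LM8) had a p of 0.0164 by Fisher's exact test (two-sided) and an adjusted p of 0.165 over the 1261 shared variants, so it did not pass the test. Its adjusted p ranged from 0.137 to 0.879 over the alternatives.

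The other shared Kmt2b deletions were nearer to each other. The deletion of intron 6 (161 bases, chr7:30283180) was listed in 92.6% and 88.5% of LM8 reads and 85.7% and 84.1% of MBT2 reads. Intron 16 (74 bases, chr7:30279440) stood at 89.7% and 95% in LM8 and 82.9% and 90.5% in MBT2. Intron 32 (85 bases, chr7:30269892) stood at 93.1% and 90.0% in LM8 and 87.7% and 92.6% in MBT2. For introns 16 and 32 the ranges of the lines overlapped, and for intron 6 they did not.

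Over all 1261 shared variants Fisher's exact test called 7.30% different between the lines, and 5.39% were called and lower in MBT2. Of the 7 shared variants of the 5 genes it called 0, and 1, the deletion of Kmt2b intron 31, had an unadjusted p under 0.05. The test compares the pooled reads of the libraries, not repeated cultures.

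The deletion of Kmt2b intron 10 in MBT2 (126 bases, chr7:30281705) was the record whose libraries lay farthest apart, and it was singled out after its values were seen. It was read in 26 of 35 reads (74.3%) in library 1 and 41 of 44 (93.2%) in library 2, with an unadjusted p of 0.0277 by Fisher's exact test and an adjusted p of 1.

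**Figure D3:**
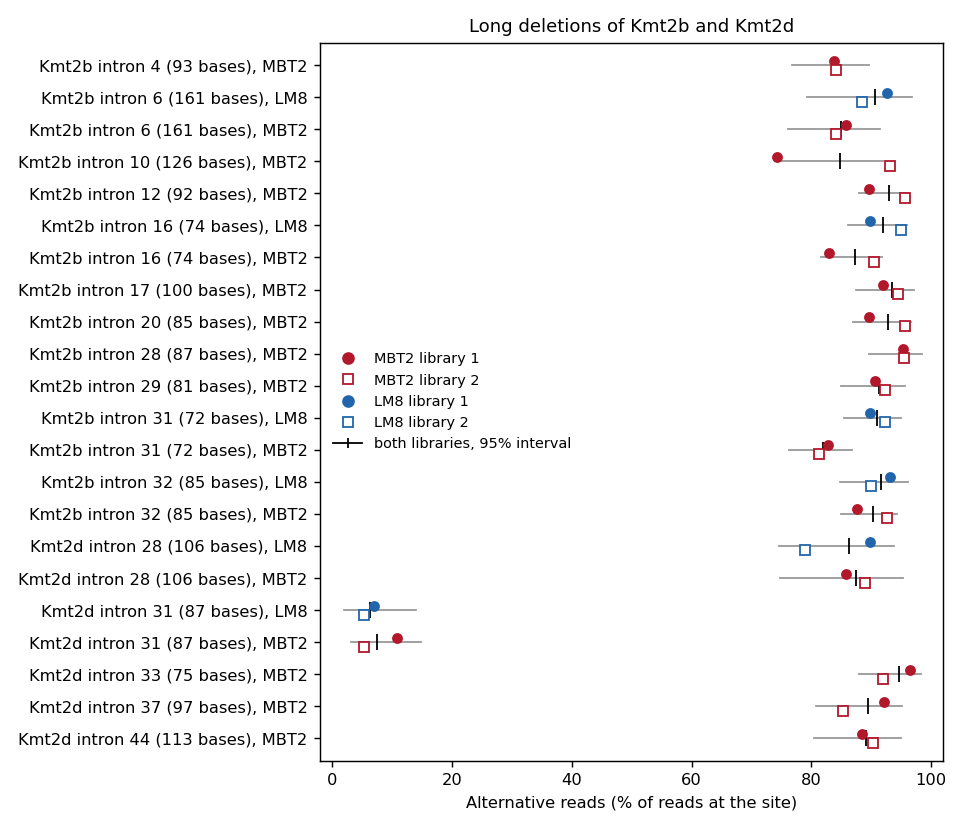
Alternative reads as a percentage of reads (horizontal axis) for the 22 long deletions, by gene, intron and line with the deleted length (vertical axis); symbols and lines are as in the plot of substitutions. The deletion at Kmt2d intron 31 is at 6.25 and 7.53%, and the other 20 lie between 82.0 and 95.4%.

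Kmt2d had fewer listed deletions for its 54 introns, 5 in MBT2 and 2 of the same in LM8. Its MBT2 deletions had 48 to 93 reads, against 79 to 222 for those of Kmt2b, and the part of depth was not tested. The deletion of intron 28 (106 bases, chr15:98752304) was read in 35 of 39 reads (89.7%) and 15 of 19 (78.9%) in LM8, and in 18 of 21 (85.7%) and 24 of 27 (88.9%) in MBT2. The deepest MBT2 deletion of this high kind, intron 33 (75 bases, chr15:98749411), stood at 96.4% and 91.9%, so 88 of 93 reads or 94.6%. The 2 others, introns 37 and 44, were at 89.4% and 89.2%. Of the 21 Kmt2d introns no longer than 113 bases, the longest with a deletion, 16 were not listed. The 33 longer ones are unlisted by the choice of that limit.

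The other shared Kmt2d deletion stood apart. At chr15:98751582 it removes 87 bases and is labelled frameshift, although 87 is a multiple of 3. The adjacent intron 31 is 84 bases long, and the deletion runs 3 bases further, to a second AG in the sequence shown above. It was read in 3 of 43 (6.98%) and 2 of 37 (5.41%) reads in LM8, so 5 of 80 or 6.25% (interval 2.06 to 14%), while the mean of the caller's own allele fraction was 9.65%. In MBT2 it was read in 4 of 37 (10.8%) and 3 of 56 (5.36%) reads, so 7 of 93 or 7.53% (interval 3.08 to 14.9%). The lines overlapped (Fisher's exact test, adjusted p = 1). All 5 and all 7 alternative reads were forward, while the other reads were 36 forward and 39 reverse in LM8 and 35 forward and 51 reverse in MBT2. Its length equals other Kmt2d introns, which is why it is among the 22 that match by length. Across the lists, 8.09% of intron-length deletions in MBT2 and 9.19% in LM8 were under 20% of reads.

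**Figure D4:**
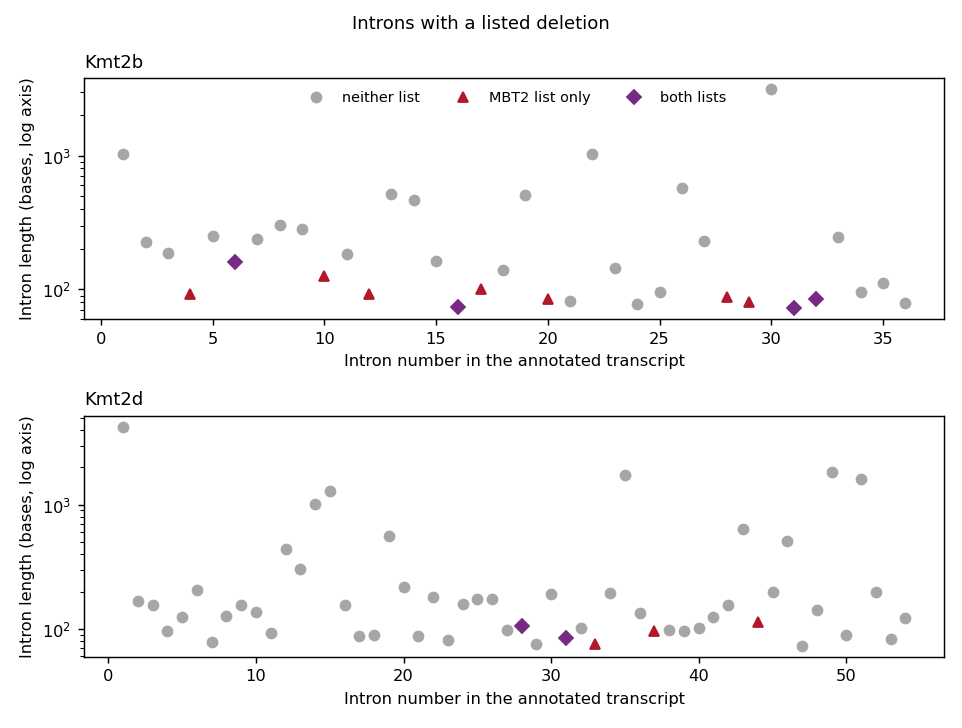
Length of every intron of Kmt2b (top) and Kmt2d (bottom) in bases on a log axis, by intron number in the annotated transcript; diamonds are introns with a deletion in both lists, triangles in the MBT2 list only and grey circles in neither. Listed introns are among the shorter ones, from 72 to 161 bases in Kmt2b and up to 113 bases in Kmt2d, where the diamond at intron 31 stands for the deletion that runs 3 bases further.

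Other genes that write, remove or assemble histone methylation were counted from a list of 53. In MBT2 21 of them had 34 variants, 18 substitutions and 9 long deletions among them, and in LM8 26 had 38 variants, 18 substitutions and 10 long deletions among them. All 9 and all 10 long deletions had the length of an intron of their gene, as in Kmt2b and Kmt2d. Substitutions that alter the protein and stand in 1 list only numbered 10 in MBT2 and 8 in LM8. By mark, genes for partners and relatives of the lysine 4 enzymes held 3 of them in MBT2 and 1 in LM8, and further lysine 36 genes 2, both adjacent changes in Smyd2, and 1. Genes for lysine 27 held 0 and 1, for lysine 9 1 and 2, for lysine 20 of histone H4 2 and 0, and demethylases 2 and 3. These counts are small and were not tested between the lines. Dot1l, the lysine 79 enzyme, had no variant in either list.

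In MBT2 6 of the 10 were at 20% or more of reads, as was Setd2 E759*. Of all listed substitutions 23.1% reach that level, but these include silent, non-coding and shared ones. The share among protein-altering substitutions in 1 list only was not computed. Kdm2a S1074G, in a lysine 36 demethylase, was at 76.8% of 327 reads, and Rbbp5 G46C, in a core subunit of the Kmt2 complexes, at 69.6% of 171. A splice donor change in Kmt5b, a lysine 20 enzyme of histone H4, was at 85.7% of 49 reads with a median of 21 bases from the read end, unlike the Nsd2 donor. The adjacent changes L340V and M339I in Smyd2 were both at 33.8% of 346 reads with equal counts, so they may not be separate events. Ncoa6 I1731M was at 30.1% of 206. The other 4, Setdb2 A492T, Ncoa6 V561A, Kmt5c V356A and Kdm4b E431*, were under 10%. Of the 10, 3 had a median distance of 1 base from the read end, all under 10% of reads.

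In LM8 0 of the 8 reached 20%, against 13.5% of all listed substitutions, again a broader group. The highest were Ehmt2 G293A, in a lysine 9 enzyme, at 19.4% of 175 reads (interval 13.8 to 26.1%, which overlaps that of Setd2 R457Q), Jarid2 V961L, in a PRC2 partner of Ezh2, at 13.9% of 36, and Ehmt2 V335A at 10.6% of 66. The 5 others, Kdm2a R1003W and M57T, Setd1b S1853R, Kdm3b K860E and Smyd2 A114T, were under 10%. Among them, Kdm3b K860E was at 14.7% in library 1 and 0% in library 2, and Smyd2 A114T rested on 2 of 53 reads. Of the 8, 3 had a median distance of 1 base from the read end, Ehmt2 V335A among them.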

How the data were processed

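The deposited files are 1 variant list per line in variant call format 4.2. Their unit is reads per allele and library, a count made by the authors' caller. Variants were called over the library pair of each line with Mutect 2.2, filtered and selected with GATK 4.1.5.0 and annotated with SnpEff 5.1d, database 105, on GRCm39, per the file headers. Tools named in the submitters' processing notes are bcl2fastq 2.17.1.14, cutadapt 1.9.1, STAR 2.7.9a and GATK 4.3.0. The handling of spliced reads is not stated.

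Libraries were grouped by the line in their labels. Alternative reads were divided by reference plus alternative reads, per library and summed. Duplicates, and lines at variants with the same position and alleles, were compared with a two-sided Fisher's exact test, adjusted over the whole list by Benjamini-Hochberg (threshold 0.05). GENCODE M21 is of build GRCm38, so it gave strand, intron lengths, exon and codon numbers, sequences and distances between sites. No coordinate of that build is printed. All variants of the 5 genes were accounted for. Every substitution was named, as were the long deletions that are shared, without a match at the adjacent intron, or deepest. Of the 53 other genes, up to 10 private protein-altering substitutions per line were named, by depth. Members, lists and tests were chosen with earlier results of these data known. The tests were tried on simulated reads. Alternatives were depth minima, single libraries, the caller's own allele fraction, length rules and a Cochran-Mantel-Haenszel test. Computation used scipy 1.17.1 and pandas 2.3.3 under Python 3.11.15, with matplotlib 3.10.9 for plots.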

Additional observations from a re-analysis of the deposited data

How the results depend on the processing

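Counts of variants by type changed by at most 1 under depth minima of 20 and 40 reads, an alternative read in each library, or a library left out. LM8 had 14 records in place of 15 at 40 reads, with an alternative read in each library and without library 1, and MBT2 had 21 throughout. The count of intron-length deletions was 16 and 6 at 51 or more bases and within 1 base, and 15 and 5 against the adjacent intron, a rule chosen after seeing the data, as was leaving libraries out of the counts. Of 72 percentages from a single library, 68 lay inside the interval of the sum; the exceptions were both for Kmt2b intron 10, Setd2 E759* in library 1 (73.8%) and Kmt2d L124F in library 2 (0%). The caller's own allele fraction lay inside for 35 of 36, and moved by over 1.5 times for Kmt2d L124F (8.45%) and, in LM8, the deletion at Kmt2d intron 31 (9.65%). Substitutions at 20% or more numbered 1 to 2 in LM8 with a library left out, also chosen after seeing the data, and 1 in MBT2 each time. Between lines, 92 sites were called, 93 with the library number as a replicate block, 92 at 20 or more reads, and 39 to 45 with 1 library number left out, where fewer reads are tested; 0 of the 7 shared variants of the 5 genes were called in any of these. Deviations of library 1 from the line mean had a correlation of -0.02 between the lines over 1261 sites. At these depths they are largely counting error, so this cannot show whether libraries of the same number were handled together. Depths of 39 to 300 reads leave intervals of several percentage points or more, so small differences between lines were not detectable.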

Other observations

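A further deletion in Kmt2d is named in the lists only by reference. In both lines the record for the deletion of intron 28 carries a phasing field that names a second deletion, starting at chr15:98752284, which is not listed itself and has no reads given. It would remove 127 bases, 21 more than the 106 bases of the intron. The 127 bases begin with GT and end with AG on the RNA strand, and the 21 additional bases are the first bases of the next exon. This is the same form as the deletion at intron 31, which ends 3 bases inside the next exon, and both lengths added to the intron are multiples of 3.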
